A study of Homo sapiens with 30 samples.

Results

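STAT3 and 5 genes of the gp130 cytokine pathway (IL6ST, LIFR, OSMR, JAK2 and SOCS3) are described here across the knockdown of each subunit of the negative elongation factor, NELF. The 6 genes were taken by gene symbol from the gene-level table, in which 14220 different genes had a symbol of their own, and each had 1 transcript cluster, the array's unit for a gene. STAT3 was selected on its low level on the siNELF-A arrays, so that its values there are given as a description and were not tested. The other 5 were taken for their place in its pathway, with earlier results of these data known. The cells were T47D, an established human luminal breast cancer line, in all 5 groups. The groups differed in the siRNA transfected, which was directed against luciferase in the control group and against 1 subunit of NELF (A, B, C or E) in the others. All were transfected at 10 nM, given new medium after 48 hours and harvested 48 hours after that, and each group had 3 exon arrays. The series text calls these 3 arrays technical repeats, so p-values measure the spread between arrays, and nothing in the labels says that they came from separate cultures. No label gives a protein level or a cytokine treatment.

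Cytokines of the interleukin-6 family signal through receptor complexes that contain gp130, the protein of IL6ST. Ligand binding brings together gp130 with a partner chain such as the leukaemia inhibitory factor receptor, LIFR, or the oncostatin M receptor, OSMR, and activates Janus kinases bound to the receptor tails. The kinases phosphorylate the receptor and then STAT3, which dimerises, enters the nucleus and binds DNA, and SOCS3, one of its targets, feeds back to inhibit gp130 and the kinases. In breast epithelium STAT3 is best known for its part in involution after lactation and for its activity in many breast cancers. NELF binds RNA polymerase II shortly after initiation and holds it close to the promoter.

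As NELF acts close to transcription start sites, the 250 bases upstream of the RefSeq start (GRCh38.p14) are shown for the 3 genes whose changes are described at most length below. Capitals mark GGGCGG on either strand (CCGCCC on the other), a GC-box core. The STAT3 window (chr17:42388443-42388692, minus strand) held 2 copies, starting 231 and 194 bases before the start. The IL6ST window (chr5:55994964-55995213, minus strand) held 4, and the JAK2 window (chr9:4984140-4984389, plus strand) held 0.
STAT3: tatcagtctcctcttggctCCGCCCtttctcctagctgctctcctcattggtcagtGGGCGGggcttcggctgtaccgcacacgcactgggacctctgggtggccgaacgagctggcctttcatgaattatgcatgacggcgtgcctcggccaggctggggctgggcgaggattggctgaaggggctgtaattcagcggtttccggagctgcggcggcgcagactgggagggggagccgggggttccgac
IL6ST: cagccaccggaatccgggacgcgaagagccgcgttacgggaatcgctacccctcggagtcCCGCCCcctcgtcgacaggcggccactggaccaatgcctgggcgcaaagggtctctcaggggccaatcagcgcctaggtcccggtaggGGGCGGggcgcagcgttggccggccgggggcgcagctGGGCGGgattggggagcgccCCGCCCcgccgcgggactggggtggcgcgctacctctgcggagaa
JAK2: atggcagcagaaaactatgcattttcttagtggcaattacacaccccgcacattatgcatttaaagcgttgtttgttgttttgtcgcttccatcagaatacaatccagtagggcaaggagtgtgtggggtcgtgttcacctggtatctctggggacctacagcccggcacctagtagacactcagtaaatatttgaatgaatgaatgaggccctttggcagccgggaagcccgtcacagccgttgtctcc
The windows of OSMR, LIFR and SOCS3 held 3 (2 of them overlapping), 0 and 0 copies, and 42.64% of 35116 promoters of this length held at least 1. TATAAA, searched on both strands, was in none of the 6 windows and in 10.72% of all. TTCNNNGAA, the letters of the STAT consensus, was in the LIFR window and in none of the other 5, against 6.57% of all. These matches are letters in a window and show no binding.

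The arrays of a group resembled each other closely (pairwise r of 0.984 to 0.990 over all clusters) except in siNELF-B, where r was 0.917 to 0.973. SiNELF-B replicate 2 lay closer to the control arrays (mean r = 0.984) than to the other siNELF-B arrays (0.945), while replicate 3 had the narrowest spread of values (interquartile range 3.12, against 3.95 to 4.12 on the control arrays). Results are therefore also given without these 2 arrays, where siNELF-B is 1 array that is assumed to vary like the other groups. The targeted mRNA was lower in siNELF-C (NELFCD, log2 change -3.42, adjusted p = 1.67e-05) and in siNELF-E (NELFE, median of its probe sets, -2.61, adjusted p = 2.49e-05; limma). NELFA, also read as the median of its probe sets, was at 6.24, 6.14 and 6.34 on the control arrays and at 5.39, 5.58 and 5.92 on the siNELF-A arrays, a difference of -0.61 that did not pass the test (adjusted p = 0.176, limma), although no array overlapped. Subunits not targeted there differed by similar amounts, NELFCD by -0.66 (adjusted p = 0.221) and NELFE by 0.61 (adjusted p = 0.196, limma), without passing. A fall particular to NELFA was therefore not shown in siNELF-A. NELFB, the target in siNELF-B, was not analysed here, so that the knockdown itself was not checked in that group. All 12 luminal epithelial markers lay above the 40th percentile of gene means (log2 3.90), whereas 5 of 8 leukocyte, 5 of 6 endothelial and 6 of 8 fibroblast and mesenchymal markers lay below it. The luminal markers were themselves lower in some knockdowns: 5, 1, 4 and 1 of 12 were called lower (adjusted p below 0.05 and at least 1.5-fold) in the A, B, C and E knockdowns, against 2.83%, 4.19%, 5.3% and 4.04% of all clusters, and 0, 0, 0 and 1 higher. Their median changes were -0.45, -0.28, -0.50 and -0.03. Their mean level per array was 9.24 to 9.36 in control, 8.80 to 8.93 in siNELF-A, 8.61 to 9.23 in siNELF-B, 8.79 to 8.81 in siNELF-C and 9.18 to 9.24 in siNELF-E. The falls described below in siNELF-A and siNELF-C stand beside lower luminal markers in the same groups, and the part of this in them was not tested.

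STAT3 mRNA stood at a high level in T47D cells, at the 95.4th percentile of all clusters, and was below every control array on all 3 siNELF-A arrays. Values are log2 levels from robust multi-array averaging (RMA), so that 1 unit is a doubling of signal. On the control arrays STAT3 was at 9.47, 9.44 and 9.45. On the siNELF-A arrays it was at 7.17, 7.16 and 6.80, more than 2 units below every control array. The mean was 7.04 ± 0.21 (SD, n = 3) against 9.45 ± 0.019 (n = 3) in control, a difference of -2.41, or 5.31-fold lower. As the gene was chosen for this fall, no test is given for it. Among the 9213 clusters with 1 symbol and a mean above the 40th percentile, STAT3 ranked 16th from the lowest change in siNELF-A, between GPC6 (-2.43) and IFI27 (-2.36). The arrays read RNA pooled from whole cultures, in which fewer expressing cells and less RNA per cell cannot be told apart.

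In the other knockdowns STAT3 was near or above its control level. It was at 9.94, 9.82 and 9.84 in siNELF-C and at 9.95, 9.76 and 9.77 in siNELF-E, so that all 6 arrays lay above all 3 controls. The share of all clusters that lay clear of control in this way is not given. Statements of no overlap, here and below, are therefore descriptions. The differences, 0.41 in siNELF-C (95% interval -0.01 to 0.84) and 0.37 in siNELF-E (-0.05 to 0.80), did not pass the test (adjusted p = 0.210 and 0.386, limma). A gene was taken to pass when its p, adjusted by the Benjamini-Hochberg method over the 22011 clusters, was under 0.05 and its change at least 1.5-fold. In siNELF-B the arrays spread from 8.57 on replicate 3 over 9.29 on replicate 1 to 9.49 on replicate 2, overlapping the controls, with a mean difference of -0.34 (95% interval -0.76 to 0.09, adjusted p = 0.263, limma). From high to low, the group means ran siNELF-C (9.87 ± 0.062), siNELF-E (9.83 ± 0.11), control, siNELF-B (9.12 ± 0.48) and siNELF-A. The arrays of siNELF-C and siNELF-E overlapped, as did those of control and siNELF-B.

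Between knockdowns that the choice of STAT3 did not use, siNELF-E was higher than siNELF-B by 0.71 (SE 0.20, adjusted p = 0.0463, limma), where 5.74% of all clusters were called higher. SiNELF-C was higher than siNELF-B by 0.75 (adjusted p = 0.0714), and siNELF-C and siNELF-E differed by -0.04 as siNELF-E minus siNELF-C (95% interval -0.47 to 0.38). The call between siNELF-E and siNELF-B was lost without siNELF-B replicate 3 (0.44, adjusted p = 0.0686), and without replicates 2 and 3 together the difference was 0.53, below 1.5-fold. It was also lost in 12 of the other 14 runs that left out 1 array, with the adjusted p between 0.0611 and 0.133.

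**Figure D1:**
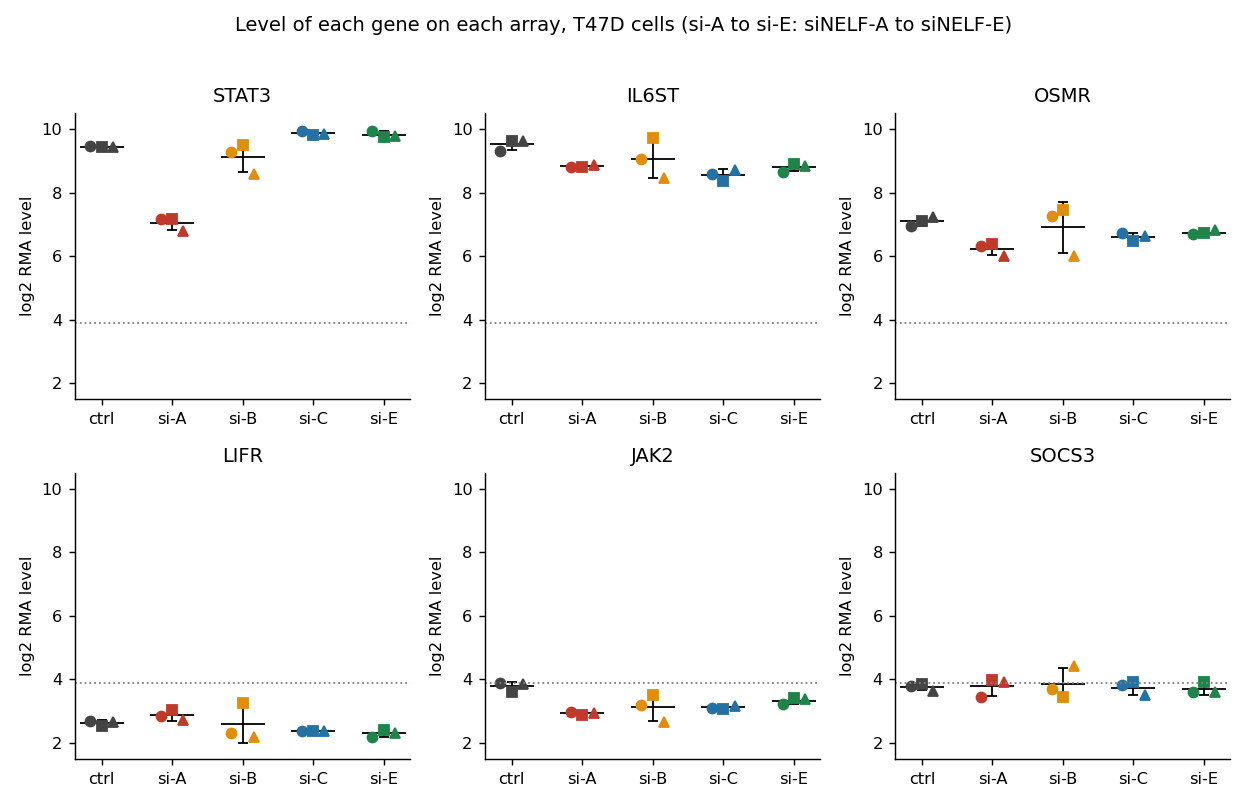
Log2 RMA level (vertical axis) of each of the 6 genes on every array, in 5 groups of 3 arrays: circles, squares and triangles are replicates 1, 2 and 3, the bar is the group mean with its SD, and the dotted line is the 40th percentile of all gene means, 3.90. STAT3 is at 6.80 to 7.17 on the siNELF-A arrays and at 8.57 to 9.95 on all other arrays, IL6ST and OSMR are lower in the A, C and E knockdowns than in control, and LIFR, JAK2 and SOCS3 lie close to or below the dotted line.

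The exon-level table read STAT3 with 26 probe sets, small groups of probes that mostly cover 1 exon each. All 26 were bright in control cells (means of 6.97 to 11.7). In siNELF-A all 26 were lower on all 3 arrays than on any control array, by -3.85 to -1.58 with a median of -2.55, which is again a description. The smallest differences were at the probe sets in places 3 (-1.58), 23 (-1.80) and 26 (-1.94) of the platform's numbering, and the largest was at place 22 (-3.85), where the level was 6.97 in control and 3.12 in siNELF-A. The low signal ran over the whole set of probe sets and was not limited to either end of the numbering.

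In siNELF-C 25 of the 26 STAT3 probe sets were above control (median 0.44) and in siNELF-E 26 of 26 were (median 0.39). Of these, 19 in siNELF-C and 22 in siNELF-E lay on all 3 arrays above all 3 controls. The share of all probe sets that lay clear of control, or had an unadjusted p below 0.05, is not given. Such counts of probe sets, here and below, are therefore descriptions without a background. None passed the test in either knockdown, where 1.15% and 1.6% of the 287329 probe sets did (limma), and 0 had an unadjusted p below 0.05. In siNELF-B 24 of 26 were lower (median -0.37), 0 passed (against 0.164% of all) and 2 had an unadjusted p below 0.05. The siNELF-B arrays differed from one another here too, with a median change over the 26 probe sets of -0.27, 0.03 and -1.0 on replicates 1, 2 and 3.

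Exon usage, meaning how far 1 probe set departed from the rest of its gene, was tested for STAT3 in the B, C and E knockdowns with limma's diffSplice, and 0 of 26 probe sets passed in any of them. In those contrasts 0.623%, 0.439% and 0.119% of 195170 probe sets passed. The probe set at place 22 came closest, with a usage change of -1.50 in siNELF-B (false discovery rate 0.0510), and it passed when probe sets below the 40th percentile were left out (0.0423). It had an unadjusted p below 0.05 in siNELF-B, as had 1 other STAT3 probe set, and siNELF-C and siNELF-E had 0.

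**Figure D2:**
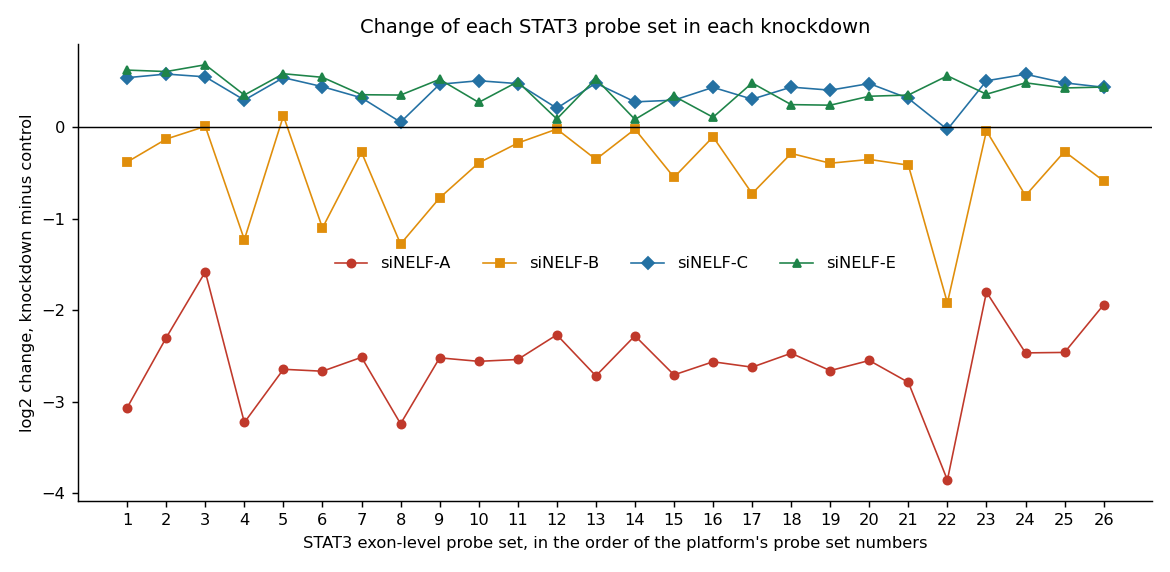
Log2 change of each of the 26 STAT3 probe sets (horizontal axis, in the platform's numbering) in each knockdown against control (vertical axis), as differences of means over 3 arrays. The siNELF-A points all lie between -3.85 and -1.58, the siNELF-E points all lie above 0, and the siNELF-B points run from -1.92 to 0.12.

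IL6ST, the shared receptor chain gp130, was the other bright member, at the 95.1st percentile. It was lower in 3 of the 4 knockdowns without overlap, a description with no share of all clusters beside it. It was at 9.33, 9.61 and 9.63 in control. In siNELF-C it was at 8.60, 8.35 and 8.70, and it fell by 0.97 on the log2 scale or 1.96-fold (SE 0.24, adjusted p = 0.0300, limma), in a comparison in which 5.3% of all clusters were called lower. In siNELF-A it was at 8.82, 8.82 and 8.89 and in siNELF-E at 8.66, 8.91 and 8.84. All 6 of these arrays lay below the lowest control, at differences of -0.68 (95% interval -1.20 to -0.16, adjusted p = 0.159) and -0.72 (-1.24 to -0.21, adjusted p = 0.113) that did not pass (limma). SiNELF-B was at 9.05, 9.71 and 8.46, with replicate 2 above every control and replicates 1 and 3 below every control (difference -0.45, adjusted p = 0.220, limma). The 4 knockdowns did not differ from each other by the test (6 pairs, adjusted p of 0.335 to 0.971, limma). Of all clusters, 4.28%, 2.87% and 4.05% were called in either direction when siNELF-A was set against the B, C and E knockdowns, 2.14% and 6.9% when siNELF-B was set against C and E, and 5.18% between C and E.

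The IL6ST result moved with the siNELF-B arrays, since all groups shared 1 estimate of spread. Without siNELF-B replicates 2 and 3, IL6ST passed in siNELF-A (adjusted p = 0.00357), siNELF-C (0.000265) and siNELF-E (0.00203), at the same differences, while the share of all clusters called in these comparisons rose to 10.3%, 17.1% and 10.7%. The siNELF-C call was lost without any 1 of the 3 control or 3 siNELF-C arrays (adjusted p of 0.0609 to 0.126) and kept in the other 9 such runs. It was also lost when the arrays' interquartile ranges entered the fit (-0.55) and as a median of probe sets (-1.08, adjusted p = 0.0599, limma).

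The probe sets of IL6ST moved mostly in the same direction but by different amounts, from -2.15 to -0.59 in siNELF-C. All 20 were lower in siNELF-A (median -0.70), in siNELF-C (median -1.12) and in siNELF-E (median -0.76), and 18, 20 and 17 of them lay below all control arrays on all 3 arrays. In siNELF-B 19 of 20 were lower and 0 lay clear of control. None of the 20 passed at the level of single probe sets, where 0.618% of all passed in siNELF-A, with 10, 2, 18 and 9 at an unadjusted p below 0.05 in the A, B, C and E knockdowns (limma). Without siNELF-B replicates 2 and 3, 17 of 20 passed as lower in siNELF-C, 6 in siNELF-E and 3 in siNELF-A, where 9.16%, 3.66% and 3.58% of all probe sets were called lower. No IL6ST probe set passed for usage in any knockdown (smallest false discovery rate 0.245, in siNELF-B; 0.176% of all passed in siNELF-A), including the probe set at place 20, which had the largest change in siNELF-C (-2.15).

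OSMR, the oncostatin M receptor chain that pairs with gp130, was of moderate level, at the 78.3rd percentile. It was at 6.95, 7.10 and 7.25 in control and at 6.32, 6.38 and 6.01 in siNELF-A. The difference of -0.87 (SE 0.29, 95% interval -1.49 to -0.24) did not pass with all 15 arrays (adjusted p = 0.135, limma), where 2.83% of all clusters were called lower. It passed without siNELF-B replicates 2 and 3 (adjusted p = 0.000966, limma), where 8.97% were. In siNELF-C it was at 6.73, 6.48 and 6.65 and in siNELF-E at 6.69, 6.72 and 6.83, all below control, with differences of -0.48 (adjusted p = 0.314) and -0.36 (adjusted p = 0.643). SiNELF-B was at 7.26, 7.47 and 6.00, with 2 arrays above every control and 1 below. No pair of knockdowns differed by the test (smallest adjusted p = 0.216, siNELF-B against siNELF-A, limma). Of the 24 probe sets, 24, 17, 23 and 21 were lower in the A, B, C and E knockdowns, with medians of -0.88, -0.27, -0.63 and -0.33, and 0 passed in any of them, while 11, 1, 2 and 0 had an unadjusted p below 0.05 (limma).

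LIFR, the chain that leukaemia inhibitory factor binds, gave a signal at the 23.1st percentile. Of its 26 probe sets, 15 had means over all arrays below the 25th percentile of probe sets. It was at 2.68, 2.53 and 2.67 in control. The siNELF-A arrays were higher, at 2.84, 3.04 and 2.72, and those of siNELF-C (2.38, 2.37 and 2.39) and siNELF-E (2.19, 2.40 and 2.32) were lower, without overlap in either direction. None of these differences passed (0.24, -0.25 and -0.32, adjusted p = 0.630, 0.512 and 0.561, limma), and with both groups near the bottom of the scale no fold is given. Centring each array on its 75th percentile turned the siNELF-C difference to 0.10. SiNELF-B spread over the whole range, at 2.30, 3.27 and 2.18. At probe-set level 0 of 26 passed in any knockdown, and 2, 3, 2 and 3 had an unadjusted p below 0.05 in the A, B, C and E knockdowns.

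JAK2, a Janus kinase that binds cytokine receptor tails, was dim as well, at the 32.1st percentile. It was lower on every knockdown array than on every control array, a description with no share of all clusters beside it. It was at 3.88, 3.61 and 3.85 in control and at 2.98, 2.88 and 2.96 in siNELF-A. It fell by 0.84 on the log2 scale there (SE 0.18, adjusted p = 0.0202), against 2.83% of all clusters called lower. SiNELF-C was at 3.11, 3.08 and 3.17 and also passed (-0.66, adjusted p = 0.0410, limma). SiNELF-B (3.21, 3.51 and 2.67) and siNELF-E (3.22, 3.41 and 3.38) did not, with differences of -0.65 (adjusted p = 0.0518) and -0.45 (adjusted p = 0.199). As these levels lie below the 40th percentile of gene means, no fold is given beyond the 1.5-fold limit of the test.

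The JAK2 call in siNELF-A was lost without control replicate 1 (adjusted p = 0.0912), without control replicate 3 (0.0918) and without siNELF-A replicate 1, 2 or 3 (0.0518, 0.0748 and 0.0739), and the siNELF-C call was kept in 2 of the 15 runs that left out 1 array. Centring on the 75th percentile also ended the siNELF-C call (-0.31, adjusted p = 0.117, limma). Without siNELF-B replicates 2 and 3 both calls held (adjusted p = 0.000285 and 0.000708, limma), where 8.97% and 14.8% of all clusters were called lower. JAK2 did not differ between knockdowns by the test (smallest adjusted p = 0.293, siNELF-E against siNELF-A). Of its 32 probe sets 30, 28, 27 and 24 were lower in the A, B, C and E knockdowns, with medians of -0.80, -0.79, -0.80 and -0.50. None passed with all arrays, while 11, 7, 9 and 7 had an unadjusted p below 0.05, and 8 passed as lower in siNELF-A and 4 in siNELF-C without siNELF-B replicates 2 and 3, where 3.58% and 9.16% of all probe sets did (limma).

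**Figure D3:**
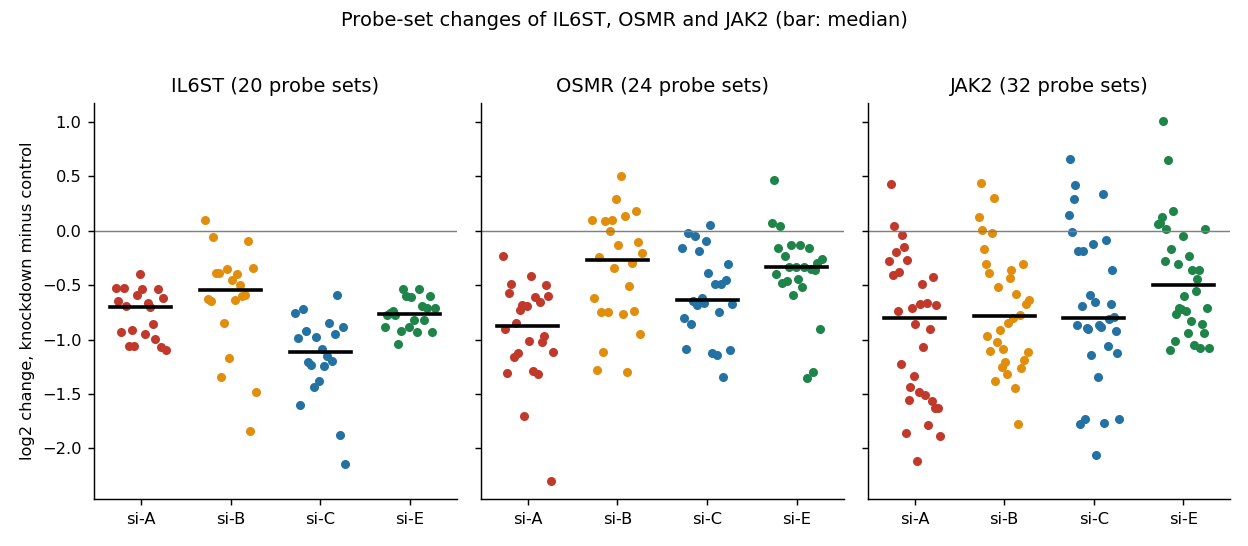
Log2 change against control (vertical axis) of each probe set of IL6ST, OSMR and JAK2 in the 4 knockdowns. Points are differences of means over 3 arrays, spread sideways in the platform's numbering, and the bar is their median. All 20 IL6ST probe sets lie below 0 in the A, C and E knockdowns with the lowest median in siNELF-C (-1.12), OSMR has its lowest median in siNELF-A (-0.88), and the JAK2 points spread most widely, from -2.12 to 1.01.

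SOCS3, the feedback inhibitor of gp130 and of the kinases and itself a STAT3 target, stayed close to its control level on most arrays, at the 38.3rd percentile. It was at 3.80, 3.84 and 3.65 in control, at 3.45, 3.98 and 3.91 in siNELF-A, and at 3.71, 3.44 and 4.43 in siNELF-B. In siNELF-C it was at 3.81, 3.92 and 3.50 and in siNELF-E at 3.60, 3.93 and 3.61, so that every group overlapped control. The differences were 0.01 (95% interval -0.49 to 0.52), 0.10, -0.02 and -0.05, with adjusted p of 0.805 to 0.982 (limma). None of its 10 probe sets passed, and 0 had an unadjusted p below 0.05 in any knockdown.

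Counted together without STAT3, 1 of the 5 other members passed in siNELF-A (JAK2), 0 in siNELF-B, 2 in siNELF-C (IL6ST and JAK2) and 0 in siNELF-E, all lower, where 2.83%, 4.19%, 5.3% and 4.04% of all clusters were called lower. The unadjusted p was below 0.05 for 3, 1, 2 and 2 of the 5, and for 3791, 6520, 5518 and 3663 of all 22011 clusters (limma). The median change of the 5 was -0.68, -0.20, -0.48 and -0.36, beside -0.03, -0.14, -0.08 and -0.02 over all clusters. The 4 comparisons share the 3 control arrays, so that a high or low control value moves all of them. Across the 15 arrays JAK2 followed OSMR (Pearson r = 0.794) and IL6ST (0.782) and OSMR followed IL6ST (0.750), and r was 0.086 between STAT3 and IL6ST. These describe arrays of 5 groups that also share differences in overall spread, and without siNELF-B replicates 2 and 3 the same 4 values were 0.756, 0.776, 0.626 and 0.001.

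Beyond the members, 6 lists of pathway genes held 84 genes, of which 67 had a transcript cluster of their own. They were called lower or higher in 5 and 0 of 66 in siNELF-A (STAT3 left out), 6 and 1 of 67 in siNELF-B, 6 and 0 in siNELF-C, and 6 and 2 in siNELF-E. Over all clusters 2.83%, 4.19%, 5.3% and 4.04% were called lower and 0.495%, 0.204%, 0.922% and 1.44% higher in the same order. The median change of the list genes was -0.07, -0.04, 0.00 and 0.01. Without siNELF-B replicates 2 and 3 the counts were 11 and 1, 9 and 2, 7 and 1, and 7 and 2, while the share of all clusters called in either direction rose to 10.3%, 19.2%, 17.1% and 10.7%. The siNELF-B count and share in that setting rest on the 1 array left, with the spread taken from the other groups. The 26 calls involved 13 genes, members included, and 6 calls of 4 genes held whichever single array was left out: JAK1 in siNELF-A and siNELF-E, PTPN11 in siNELF-E, CCND1 in siNELF-E, and BIRC5 in siNELF-C and siNELF-E.

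**Figure D4:**
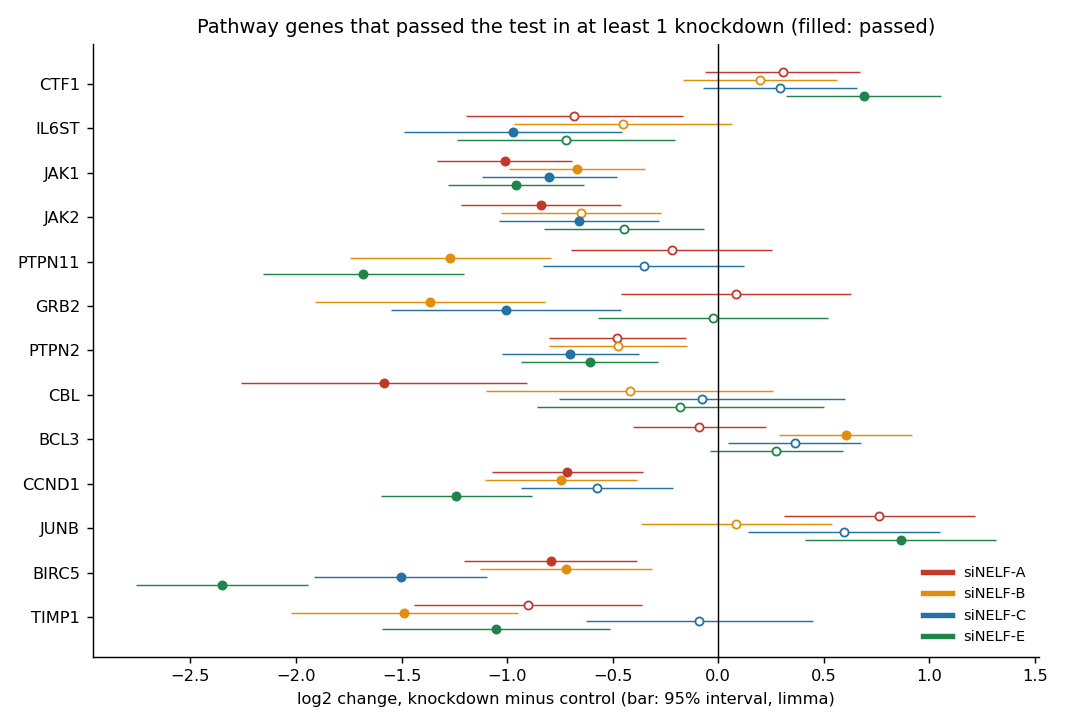
Log2 change against control (horizontal axis) with its 95% interval from limma for the 13 pathway genes that passed the test in at least 1 knockdown, 1 colour a knockdown, filled where the gene passed. JAK1 and BIRC5 are filled and to the left of 0 in all 4 knockdowns, BIRC5 reaches -2.35 in siNELF-E, CBL stands out to the left in siNELF-A (-1.58), and CTF1, BCL3 and JUNB are the genes filled to the right.

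The Janus kinases and the proteins that dock at the receptor held 8 measured genes, of which 2, 3, 3 and 2 were called lower in the A, B, C and E knockdowns and 0 higher, where 2.83%, 4.19%, 5.3% and 4.04% of all clusters were called lower. JAK1, the kinase on which gp130 signalling chiefly depends, was lower in all 4. It was at 10.1, 10.2 and 10.3 in control and between 8.99 and 9.83 on all 12 knockdown arrays, with changes of -1.01, -0.67, -0.80 and -0.96 (adjusted p below 0.05 in each, limma). The siNELF-B call was lost in 11 and the siNELF-C call in 1 of the 15 runs that left out 1 array (siNELF-C without control replicate 3, adjusted p = 0.0515). Centring on the 75th percentile also ended both, at -0.20 in siNELF-B (adjusted p = 0.237, limma) and -0.45 in siNELF-C. PTPN11, the phosphatase SHP2 that links gp130 to the MAP kinase pathway, fell in siNELF-E by 1.68, from 7.74, 7.73 and 7.93 in control to 6.07, 5.84 and 6.45, and in siNELF-B by 1.27, a call lost without control replicate 1 or 3 (adjusted p = 0.0555 and 0.0770) and at -0.82 with the arrays' interquartile ranges in the fit (0.0803). GRB2, the adaptor that couples it to RAS, fell in siNELF-B (-1.37) and siNELF-C (-1.01) and was at 0.08 and -0.02 in siNELF-A and siNELF-E. Both GRB2 calls were lost without any 1 control array (adjusted p of 0.0507 to 0.127), and each was lost in at least 1 further run. With the interquartile ranges in the fit GRB2 was at -0.51 in siNELF-C, below 1.5-fold. The brightest members of the list called in no knockdown were GAB1 and TYK2, with changes between -0.86 and 0.08.

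Among the STAT factors with a cluster of their own, STAT6, which answers interleukin-4, changed by -0.61, -0.70, 0.00 and 0.16 and STAT4, at 1.66 in control, by 0.02 to 0.18, with no call with all arrays. STAT6 without siNELF-B replicates 2 and 3 was called lower in siNELF-A (adjusted p = 0.00712, limma), as were 8.97% of all clusters. On the 1 siNELF-B array left its difference was -0.74. STAT2, STAT5A and STAT5B could be read as the median of their probe sets. STAT2, which acts in interferon signalling, was at 7.22, 6.90 and 7.24 in control and at 6.07, 5.57 and 5.90 in siNELF-C. It fell there by 1.27 (adjusted p = 0.0449) and in siNELF-B by 1.32 (adjusted p = 0.0481, limma), in comparisons where 4.34% and 3.2% of 16909 gene medians were called lower. Those calls held in 2 and 1 of 15 runs without 1 array, and without siNELF-B replicates 2 and 3 STAT2 was called lower in all 4 knockdowns, as were 10.9%, 19.6%, 20.1% and 8.71% of all gene medians. The siNELF-B value there rests on 1 array, with the spread taken from the other groups. STAT5A and STAT5B did not pass in any knockdown.

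Of the 8 receptor chains of the family, IL6ST in siNELF-C was the single call over the 4 knockdowns. Of all clusters 2.83%, 4.19%, 5.3% and 4.04% were called lower in the A, B, C and E knockdowns. The brightest others, IL27RA and IL6R, the chain that binds interleukin-6 itself, changed by -0.58 to -0.01 and by -0.21 to -0.05. Of 7 ligands, CTF1, cardiotrophin-1, rose in siNELF-E from 5.96, 6.15 and 5.77 to 6.91, 6.49 and 6.56 (0.69, 1 of 7 called higher against 1.44% of all clusters), a call lost without control replicate 1 or 3 or any 1 siNELF-E array (adjusted p of 0.0507 to 0.140, limma) and with quantile normalization (0.79, adjusted p = 0.134). IL6 and LIF were at 1.97 and 2.98 in control, below the 40th percentile, and IL11 and EBI3, the brightest others, changed by 0.29 to 0.39 and 0.27 to 0.77 without a call with all arrays.

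Of 13 negative regulators 1, 0, 1 and 1 were called lower and 0 higher in the A, B, C and E knockdowns. Of all clusters 2.83%, 4.19%, 5.3% and 4.04% were called lower in these comparisons. CBL, a ubiquitin ligase that turns over activated receptors, fell in siNELF-A from 6.55, 6.38 and 6.57 to 5.14, 4.93 and 4.67 (-1.58) and was at -0.42, -0.08 and -0.18 in the others. The CBL call was lost without control replicate 1 or 3 or siNELF-A replicate 2 or 3 (adjusted p of 0.0541 to 0.0786, limma). PTPN2, a phosphatase that removes phosphate from Janus kinases and STATs, fell in siNELF-C (-0.70) and siNELF-E (-0.61) and was at -0.48 in both other knockdowns. The PTPN2 calls were lost without control replicate 1 or 3 in both contrasts, without siNELF-C replicate 2 or 3, and without any 1 siNELF-E array (adjusted p of 0.0578 to 0.131, limma). Both were also lost under each of 3 other scalings, with changes of -0.56 to -0.35 in siNELF-C and -0.51 to -0.44 in siNELF-E. PIAS3, an inhibitor of STAT3 binding, and PTPN1 changed by -0.19 to 0.21 and by -0.49 to 0.09. SH2B3, read as the median of its probe sets, fell in siNELF-E (-0.99, adjusted p = 0.00833, limma; 3.32% of all gene medians were called lower), a call lost without control replicate 3 (0.0506) or siNELF-E replicate 2 (0.0523). PIAS1 and PIAS2, read in the same way, did not pass in any knockdown with all arrays.

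The list of genes known as STAT3 targets in other cells held 28 measured genes. In siNELF-A 2 were called lower and 0 higher, with 6 at an unadjusted p below 0.05 and a median change of -0.07, beside 2.83% of all clusters called lower. Of all 22011 clusters, 3791 had an unadjusted p below 0.05 there (limma). The counts lower and higher were 3 and 1 in siNELF-B, 1 and 0 in siNELF-C, and 3 and 1 in siNELF-E, with medians of -0.05, 0.02 and 0.02, beside 4.19%, 5.3% and 4.04% of all clusters called lower and 0.204%, 0.922% and 1.44% higher. The 2 in siNELF-A were BIRC5, the survival and mitosis protein survivin, and CCND1, cyclin D1, which were also called lower in other knockdowns.

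BIRC5 was at 8.28, 8.12 and 8.31 in control. It was at 7.47, 7.50 and 7.36 in siNELF-A (-0.79), at 6.67, 6.79 and 6.74 in siNELF-C (-1.50), and at 5.76, 5.97 and 5.94 in siNELF-E (-2.35). In siNELF-B it was at 7.44, 8.03 and 7.08 (-0.72). All knockdown arrays lay below all controls, and siNELF-E was the lowest group. CCND1 was at 8.81, 8.54 and 8.71 in control and fell by 0.71 in siNELF-A, 0.74 in siNELF-B and 1.24 in siNELF-E. The siNELF-A and siNELF-B calls of BIRC5 were lost in 13 and 14, and those of CCND1 in 9 and 9, of the 15 runs that left out 1 array. In siNELF-B, quantile normalization put BIRC5 at -0.23 and CCND1 at -0.28, and centring on the 75th percentile put them at -0.25 and -0.28, all without a call. In siNELF-A, centring on the 75th percentile put BIRC5 at -0.57 and CCND1 at -0.49, below 1.5-fold. TIMP1, a metalloproteinase inhibitor, fell in siNELF-B (-1.49) and siNELF-E (-1.05) and was at -0.90 in siNELF-A. These TIMP1 calls were lost in siNELF-B without control replicate 1 or 3 or siNELF-B replicate 1 (adjusted p of 0.0574 to 0.0601), and in siNELF-E without any 1 control array or siNELF-E replicate 1 or 3 (0.0610 to 0.112, limma). With the interquartile ranges in the fit TIMP1 was at -0.92 in siNELF-B (adjusted p = 0.0553, limma).

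JUNB, an immediate early transcription factor, rose in siNELF-E (0.86) and was at 0.76 and 0.60 in siNELF-A and siNELF-C, with its control arrays spread from 5.86 to 6.79. Its call was lost without control replicate 2 or 3 or any 1 siNELF-E array (adjusted p of 0.0687 to 0.114, limma), and with quantile normalization (0.98, adjusted p = 0.0571). BCL3, a nuclear co-regulator of NF-kB, rose in siNELF-B (0.60), a call lost in 13 of the 15 runs without 1 array and with quantile normalization (1.06, adjusted p = 0.0568, limma), and was at -0.09 in siNELF-A. BCL2L1 and MUC1, the brightest targets called in no knockdown, changed by -0.47 to 0.14 and by -0.67 to 0.08. MUC1 without siNELF-B replicates 2 and 3 was called lower in siNELF-A (-0.67, adjusted p = 0.0131, limma), as were 8.97% of all clusters. Classical acute-phase targets such as FGA, FGB, FGG, CRP and A2M, made in liver, were at 1.40 to 2.12 in control and gave no signal to judge.

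The genes whose level followed a member most closely over the 15 arrays were sought among clusters with 1 symbol and a mean above the 40th percentile. For STAT3 they were GPC6 (Pearson r = 0.967), ECE1 (0.946), CAPN1 (0.945), TNFSF10 (0.941), PREX1 (0.927) and GNAI2 (0.926), all lower in siNELF-A, by -2.43 to -1.13. STAT3 varied over the arrays mostly through its fall in siNELF-A, for which it was chosen. That these genes are low there follows from how they were picked and is no separate result. TNFSF10 was also well above control in siNELF-C (1.44), and the other 5 differed from control by at most 0.31 there. For IL6ST they were CDCA7L (0.955), PRKD3 (0.954) and EZH2 (0.945), for OSMR PCDHB13 (0.961), SMARCA4 (0.944) and ZMYND8 (0.936), and for JAK2 PARP14 (0.970), DTX3L (0.958) and PGR (0.955). For LIFR they were SELENOT (0.895), TSPAN33 (0.888) and SLC25A17 (0.875). For SOCS3 they were DKK3 (0.831), SLC22A6 (0.821) and NEUROG1 (0.813), whose r was between 0.530 and 0.622 without siNELF-B replicates 2 and 3. These correlations rest on 5 groups, the genes were picked as the highest of about 9130, and arrays share differences in spread, so they carry no p.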

How the data were processed

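Total RNA (1 ug per sample) was hybridised to Affymetrix human exon arrays. The deposited values are on the log2 scale. Per the labels, the authors made them in ArrayAssist by robust multi-array averaging (RMA) of the core exons, with hg18 as build and no software version named. They were used as deposited: 22011 transcript clusters and 287329 probe sets on the same 15 arrays. Array medians and spreads differed, and other scalings were tried as alternatives. Groups and replicate numbers came from the labels. Gene symbols came from the platform annotation, updated through a RefSeq table used for names; 14432 clusters had 1 symbol, 2408 several and 5171 were not listed, and features without exactly 1 symbol are not named.

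One linear model with 5 group means was fitted to all 15 arrays with limma 3.58.1 (lmFit and eBayes, R 4.3.3), with Benjamini-Hochberg adjustment over all clusters or all probe sets. A call needed an adjusted p below 0.05 and a change of at least 1.5-fold. Exon usage was tested with diffSplice on probe sets above the 25th percentile, in genes with at least 3. Genes with no cluster of their own were read as the median of their probe sets, over 16909 genes, which had not been planned. Tested on simulated data for siNELF-A against control with 22011 clusters, the fit recovered 47 of 100 changes of log2 size 1 and 87 of 100 of size 2, with 9 false calls there and 2 in the other 3 comparisons. The simulated noise was independent between clusters and arrays, with the same spread on every array. The real arrays differed in spread, most of all in siNELF-B, so these counts do not give the rate of false calls in the data. With 3 arrays a group, their number limits precision.

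The members and gene lists were chosen with earlier results of these data known. The text names the members and, from each of the 6 lists, up to 6 genes called in at least 1 knockdown and the 2 brightest called in none. It also names the 6 genes most like STAT3 and the 3 most like each other member over the arrays, the NELF targets and cell type markers. A symbol with 2 clusters was read at the brighter one. Promoter windows are RefSeq sequence from GRCh38.p14. The alternatives were 3 scalings, a filter on dim genes, 2 groups in the fit, a replicate block, array weights, the interquartile range as covariate, another variance prior, medians of probe sets, and arrays left out.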

Additional observations from a re-analysis of the deposited data

How the results depend on the processing

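The STAT3 difference in siNELF-A, for which the gene was chosen, stayed between -2.53 and -2.19 over 26 alternatives. These reuse the same arrays and are no separate result. The smallest size came under centring on the 75th percentile (-2.19). That scaling moved the median change of all clusters from -0.03, -0.14, -0.08 and -0.02 in the A, B, C and E knockdowns to 0.19, 0.32, 0.27 and 0.11 (0.04 to 0.10 under the other 2 scalings), and the share of calls that were higher from 14.9%, 4.65%, 14.8% and 26.3% to 38%, 53%, 48% and 42.7%. Quantile normalization gave 33.2%, 30.9%, 35.3% and 41.4%, median centring 26.5%, 17.6%, 25.6% and 39.5%, and the interquartile range as covariate 45.5%, 46.9%, 49.5% and 38.6%.

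IL6ST in siNELF-C (-0.97) missed the test with the interquartile range as covariate (-0.55), with a replicate block (-0.97, adjusted p = 0.0504) and as a median of probe sets (-1.08), and ran from -1.07 to -0.87 without single arrays. JAK2 in siNELF-A missed it as a median of probe sets (-1.18) and ran from -0.92 to -0.79 without single arrays. JAK2 in siNELF-C missed it with median centring (-0.52), 75th percentile centring (-0.31), a replicate block (-0.66), the covariate (-0.37) and as a median of probe sets (-0.85), and ran from -0.75 to -0.61 without single arrays. STAT3 in siNELF-E against siNELF-B (0.71) missed the call with quantile normalization (0.49), 75th percentile centring (0.37), 2 groups in the fit (0.71), array weights (0.54), the covariate (0.34), the trended robust prior (0.71), without siNELF-B replicates 2 and 3 (0.53) and as a median of probe sets (0.94), and ran from 0.44 to 0.89 without single arrays. The causes were not tested.

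Calls among the pathway genes in siNELF-A numbered 10 with 2 groups in the fit, 3 with the replicate block, 11 with array weights and 12 without siNELF-B replicates 2 and 3 (5 with all arrays). In siNELF-B the pathway calls numbered 4 with quantile normalization, 0 with 2 groups, 3 with the block, 12 with weights and 1 with the covariate (7 with all). Over all clusters 472, 12, 404, 4767 and 121 were called lower in these settings (922 with all). Those called higher numbered 211, 0, 17, 710 and 107 (45 with all). In siNELF-C the pathway calls numbered 3 with the block and 2 with the covariate (6 with all). Over all clusters 857 and 690 were called lower there (1166 with all) and 153 and 677 higher (203 with all). Without single arrays the pathway calls ran from 1 to 12 in siNELF-A, 0 to 19 in siNELF-B, 1 to 8 in siNELF-C and 4 to 9 in siNELF-E. The low ends came without a control array or an array of the knockdown itself and the high ends without siNELF-B replicate 2 or 3. Calls over all clusters moved too. Without siNELF-B replicate 2, 1354, 6676, 2622 and 1375 clusters were called lower in the A, B, C and E knockdowns. Without siNELF-B replicate 3 these numbers were 1697, 316, 2955 and 1544, and without control replicate 3 they were 211, 83, 296 and 516. A pathway count is therefore to be read only beside the count over all clusters.

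Differences that had passed no test changed sign as follows. In siNELF-B, quantile normalization turned STAT3 (0.0231) and OSMR (0.29), median centring LIFR (0.18) and OSMR (0.0249), 75th percentile centring STAT3 (0.13), IL6ST (0.0175), LIFR (0.42) and OSMR (0.27), array weights OSMR (0.14) and SOCS3 (-0.0598), and the covariate STAT3 (0.12), IL6ST (0.13), LIFR (0.50), OSMR (0.54) and SOCS3 (-0.41). Without siNELF-B replicates 2 and 3, OSMR was 0.15 and SOCS3 -0.0551 there, and without single arrays LIFR ran from -0.39 to 0.16, OSMR from -0.48 to 0.26 and SOCS3 from -0.19 to 0.30. In siNELF-C, SOCS3 was 0.0089, 0.12 and 0.33 under the 3 scalings, LIFR 0.10 with 75th percentile centring and 0.15 with the covariate, and OSMR 0.0593 with the covariate. In siNELF-E, SOCS3 was 0.049 with median and 0.0801 with 75th percentile centring. In siNELF-A, SOCS3 was -0.0024 with weights, -0.21 with the covariate and -0.27 as a median of probe sets, and LIFR was -0.023 as such a median. Without single arrays SOCS3 ran from -0.0848 to 0.18 in siNELF-A, -0.11 to 0.10 in siNELF-C and -0.16 to 0.0045 in siNELF-E.

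Same-numbered arrays deviated together (r above 0.1) in 3 of 30 pairs, with r from -0.30 to 0.20, so the labels' replicate numbers are not taken to pair the arrays, and the results with a replicate block stand here only. Medians of probe sets without siNELF-B replicates 2 and 3, and single arrays left out of those medians and of STAT3 between siNELF-E and siNELF-B, were added after seeing the data, as were probe sets without siNELF-B replicates 2 and 3. Member probe sets called then numbered 17, 22 and 7 in the A (STAT3 left out), C and E knockdowns, against 0 with all arrays. Of all 287329 probe sets, 3.58%, 9.16% and 3.66% were called lower and 0.466%, 1.73% and 0.999% higher in that setting. SiNELF-B, with 1 array left, is not counted. Dim signal limits LIFR, JAK2 and SOCS3.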
